A study of Mus with 2 samples.

Results

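The genes described here are 9 immediate early genes that code for subunits of the transcription factor AP-1 or are switched on together with them: Fos, Fosb, Jun, Junb, Jund, Egr1, Atf3, Ier2 and Dusp1. They were taken by symbol, with no measured value in the rule, and make up 9 of the 32285 genes in the deposited matrices. All 9 were detected in both sections, and 7 of them passed a mean of 20 UMIs per 1000000 (CPM) over the sections, which Fosb and Atf3 did not.

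The values come from Visium, an assay in which the RNA of a frozen tissue section is captured on a printed grid of barcoded spots and each captured molecule is counted once by a random tag, its unique molecular identifier (UMI). Since 1 spot covers more ground than a cell, it mixes RNA of neighbouring cells of unlike type. Both sections were 10 µm thick and came from tumors of CT26, a colon carcinoma line that arose in BALB/c mice and was grown under the skin of female balb/c mice aged 6 to 8 weeks. The control mouse received PBS, whereas the other mouse received 10 µg of recombinant mouse IL-7 (rIL7) into the peritoneum on days 11 and 13, and both tumors were labelled as day 15. Neither mouse carried a named genetic change, and the tumor line was the same in both. Each group held 1 section of 1 tumor, so a difference between groups is a difference between 2 libraries with no replicate check and no test.

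Fos and Jun proteins pair through leucine zippers and bind AP-1 sites in the control regions of genes for growth, matrix breakdown and inflammation. Their genes are transcribed within minutes of a growth factor, cytokine or stress signal through MAP kinases, without new protein being made first, and the transcripts are short-lived. Egr1 and Atf3 are further transcription factors of the same early wave, Ier2 is an early response gene, and Dusp1 is a phosphatase that switches MAP kinases off again. In tumors these genes are active in cancer cells, in macrophages, in activated T cells and in stroma.

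Control and rIL7 tissue kept 2219 and 1950 spots, with 22951678 and 25729233 UMIs and a median of 9623 and 12922 UMIs per spot. Of the tissue barcodes, 1702 occurred in both sections, since both were laid on the same printed grid, and such a barcode marks the same grid position and not the same cells. Rpl39l and Baiap2l1, used here as markers of CT26 cells, together reached 1293 CPM in the control against 1043 CPM with rIL7. Within this depth, 95% intervals are exact and cover counting error only. The spread inside a section is given as the range over 4 quadrants, which are parts of 1 tissue and not replicates.

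Fos was the member with the widest gap between the sections. It stood at 16.9 CPM in the control tissue (389 UMIs) against 40.5 CPM with rIL7 (1042 UMIs), a ratio of 2.39 (95% interval 2.12 to 2.69). Its quadrants ran from 11.3 to 19.8 CPM in the control and from 31.5 to 46.4 CPM in the rIL7 section, so every rIL7 quadrant lay above every control quadrant. The gene, on chr12:85473890-85477274 of GRCm38, codes for the founding member of the Fos family, which binds DNA only together with a partner such as Jun. Fosb, a close relative on chr7:19302696-19310118, had 7.06 CPM in the control against 8.05 CPM with rIL7 (162 and 207 UMIs). The ratio of 1.14 had an interval of 0.924 to 1.41, so a difference in Fosb was not detectable at this depth.

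The Jun family, whose members also pair with each other, lay closer together. Jun (chr4:95049036-95052222) was at 139 CPM in the control against 157 CPM with rIL7, 1.12-fold higher (1.07 to 1.18). The quadrants just overlapped, with 126 to 147 CPM in the control and 147 to 168 CPM in the rIL7 section. Junb (chr8:84976909-84978748), often a weaker activator than Jun, was at 104 and 131 CPM, a ratio of 1.27 (1.20 to 1.34), again with overlapping quadrants. Jund (chr8:70697739-70700616), the family member expressed most steadily in resting cells, was at 65.8 and 69.1 CPM, and its ratio of 1.05 had an interval that includes 1 (0.979 to 1.12).

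Egr1, a zinc finger factor on chromosome 18, went the other way. It was at 153 CPM in the control against 125 CPM with rIL7, a ratio of 0.819 (0.781 to 0.860), with quadrants of 130 to 180 and 94.3 to 160 CPM that overlapped. Ier2 (chr8:84661331-84662852) was likewise lower with rIL7, at 104 CPM against 83.8 CPM and a ratio of 0.806 (0.760 to 0.855). Its rIL7 quadrants (80.8 to 88.5 CPM) all lay below the control quadrants (96.0 to 111 CPM).

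Atf3 (chr1:191170296-191183333), a stress-induced member of the ATF family that can pair with Jun, had 6.71 CPM in the control against 11.6 CPM with rIL7 (154 and 299 UMIs). The ratio was 1.73 (1.42 to 2.12) and the quadrants overlapped. Atf3 is also a target of ATF4, the factor of the amino acid stress response. Of 10 genes of that response 9 were lower in the rIL7 section, beside 3932 of the 7613 genes averaging 20 CPM or more. Among them were Ddit3 at 51.3 and 38.4 CPM, Ddit4 at 37.8 and 28.8 CPM and Asns at 66.7 and 50.8 CPM. At least 1.5-fold lower with quadrants apart were 0 of the 6 genes at that level, against 1.12% of all genes. The part of ATF4 in the Atf3 level was not tested. Dusp1 (chr17:26505591-26508472) was at 28.2 CPM in the control against 41.0 CPM with rIL7, 1.45-fold higher (1.32 to 1.61). Its quadrants of 21.7 to 34.1 and 36.9 to 45.9 CPM did not overlap.

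**Figure D1:**
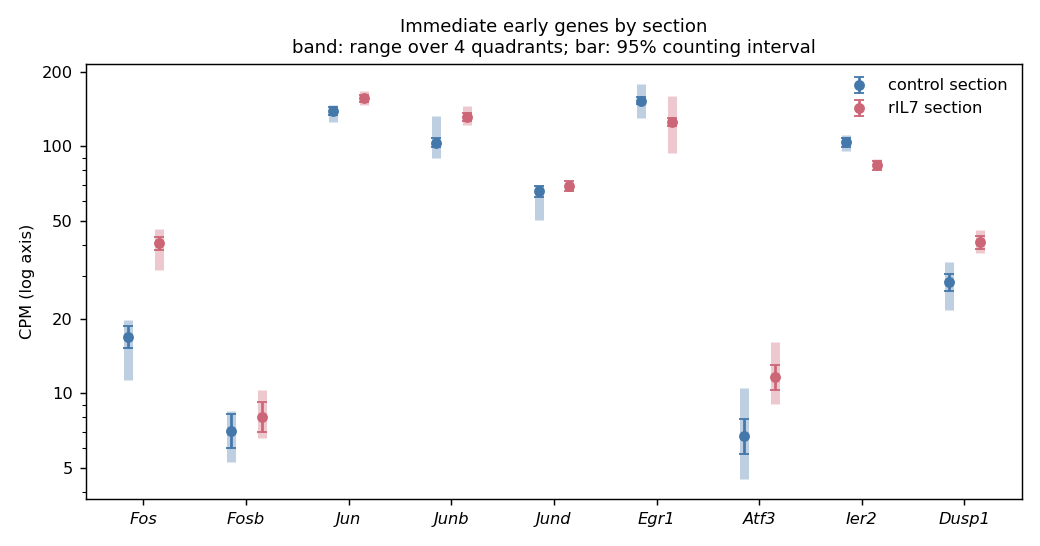
Level of each of the 9 genes in CPM (log axis) in the control and the rIL7 section, with the range over the 4 quadrants of each section as a band and the 95% counting interval as a bar. Fos and Dusp1 are the genes whose rIL7 quadrants all lie above the control quadrants, and Ier2 is the gene whose rIL7 quadrants all lie below.

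In all, 7 of the 9 genes were higher and 2 lower in the rIL7 section. Of the 7613 genes averaging 20 CPM or more, 3681 were higher and 3932 lower. The median log2 ratio was 0.19 for the members, against -0.0072 over those 7613 genes. A ratio of at least 1.5 with quadrants apart and rIL7 higher was met by 1 of the 7 members above that level, Fos, and by 1.68% of all such genes. The same rule with rIL7 lower was met by 0 of 7 members and 1.12% of genes. Quadrants apart with rIL7 above, at any ratio, were found for 2 of 7 members (Fos and Dusp1) against 10.0% of genes. With rIL7 below they were found for 1 of 7 (Ier2) against 11.8%. Summed over the 9 genes, the level was 625 CPM in the control against 667 CPM with rIL7 (ratio 1.07, 1.05 to 1.09). Jun and Egr1 together with Junb and Ier2 gave most of these UMIs, and Fos gave 2.71% of control and 6.07% of rIL7 UMIs, so the sum says little about Fos.

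Position in the tissue separated the sections more than the section totals did. Spots no deeper than 2 grid steps from the outside of the largest piece of tissue were taken as the edge, 401 control spots (18.2% of the piece) and 330 rIL7 spots (17.1%), and the remaining 1806 and 1599 as the interior. Fos at the rIL7 edge was at 133 CPM (523 UMIs), against 23.0 CPM (497 UMIs) in the interior, a ratio of 5.80 (5.12 to 6.57). In the control section the edge had 19.0 CPM and the interior 16.5 CPM, a ratio of 1.15 whose interval (0.893 to 1.47) includes 1. Edge over interior ratios for Fos ran from 5.12 to 7.16 over the 4 rIL7 quadrants and from 0.751 to 2.02 over the control quadrants. The rIL7 edge thus held 51.3% of the Fos UMIs of the piece, and Fos ranked 9 of 7613 genes by its edge ratio there and 513 of 7613 in the control.

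The step-by-step profile of Fos shows how narrow this band was. In the rIL7 section it had 150 CPM at step 1, 118 CPM at step 2, 51.3 CPM at step 3 and 37.4 CPM at step 4. From steps 5 and 6 inward, the level stayed between 17.4 and 19.5 CPM, which is within the 14.4 to 22.3 CPM found at all depths of the control section.

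**Figure D2:**
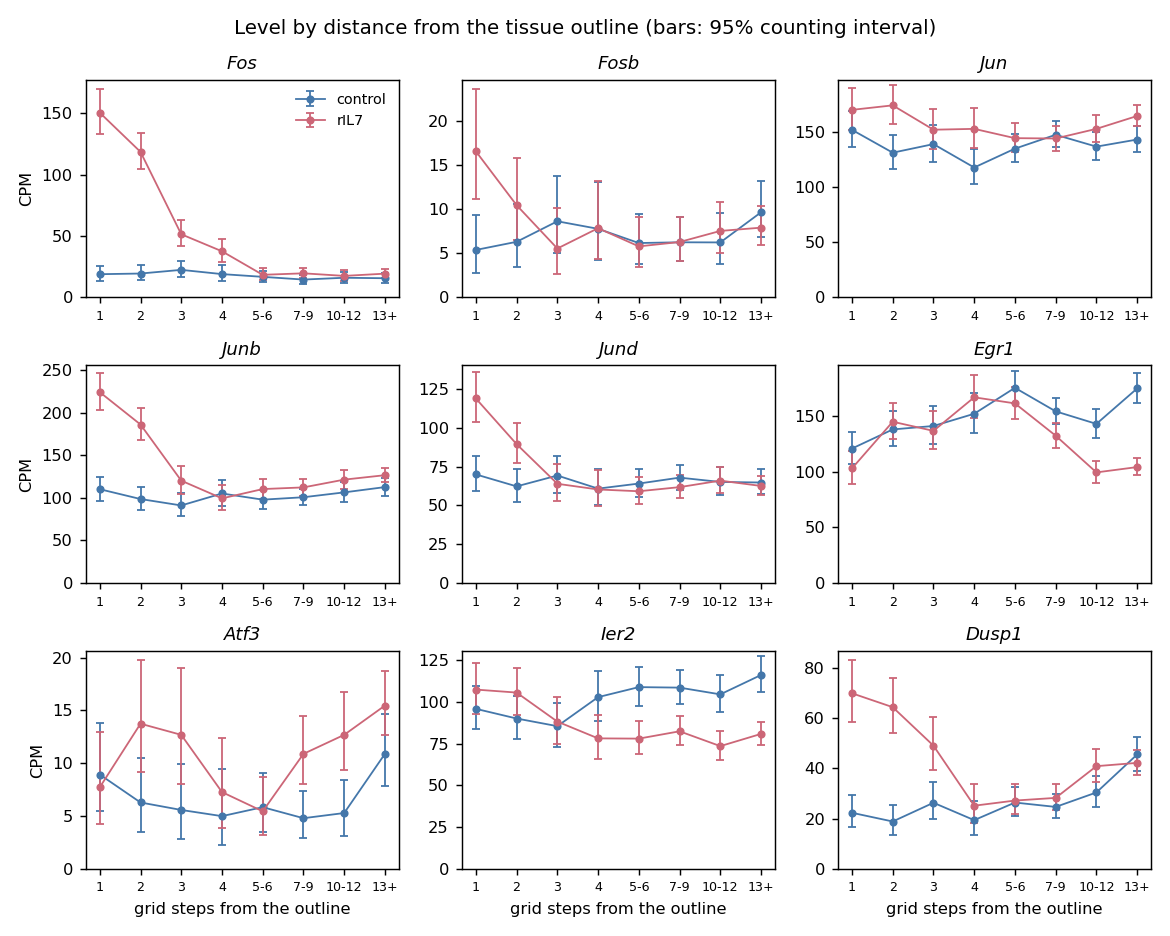
Level in CPM against distance from the tissue outline in grid steps, for each gene and both sections, with 95% counting intervals. Fos in the rIL7 section has 150 CPM at step 1 and 37.4 CPM by step 4 and has no such band in the control, while Dusp1 in the control is highest in the deepest spots, at 45.6 CPM. Dusp1 in the rIL7 section is highest at step 1, at 70.0 CPM, and has 42.2 CPM in the deepest spots.

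Other members shared the rIL7 edge to a smaller degree. Junb had 204 CPM at that edge and 118 CPM inside (ratio 1.73, 1.60 to 1.88), against 104 and 103 CPM in the control. Jund had 103 and 62.5 CPM (1.65, 1.47 to 1.85), against 66.2 and 65.6 CPM in the control. Both Jun relatives thus had an edge over interior ratio near 1 in the control as a whole, with quadrant ratios of 0.856 to 1.14 for Junb and 0.682 to 1.32 for Jund, and step 1 of the rIL7 section reached 224 CPM for Junb and 119 CPM for Jund. Fosb had 13.3 CPM at the rIL7 edge and 6.98 CPM inside (52 and 151 UMIs, ratio 1.90, 1.36 to 2.62), whereas in the control its ratio of 0.792 had an interval of 0.499 to 1.21.

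Dusp1 and Ier2 had edge over interior ratios on opposite sides of 1 in the sections. Dusp1 at the control edge had 20.6 CPM, below its interior level of 30.1 CPM (ratio 0.683, 0.542 to 0.853), and in the rIL7 section it had 67.0 CPM at the edge and 36.2 CPM inside (1.85, 1.60 to 2.13). All 4 control quadrants were lower at the edge and all 4 rIL7 quadrants higher. Deep in the tissue Dusp1 was higher than at step 4 in both sections. It had 19.4 CPM at step 4 and 45.6 CPM at steps 13 to 22 of the control. In the rIL7 section it had 25.1 CPM at step 4 and 42.2 CPM at steps 13 to 21. Ier2 had 93.0 CPM at the control edge and 107 CPM inside (0.873, 0.783 to 0.971), and 107 and 79.9 CPM in the rIL7 section (1.33, 1.20 to 1.48). The difference between sections was not tested, there being 1 section of each kind.

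Jun and Egr1, the members with the most UMIs over both sections together, had little of this edge. Jun was at 173 CPM at the rIL7 edge and 154 CPM inside (1.12, 1.03 to 1.22), and at 142 and 139 CPM in the control. Egr1 was at 126 and 125 CPM in the rIL7 section (1.003, 0.910 to 1.105) and at 130 and 159 CPM in the control (0.815, 0.744 to 0.891), where all 4 quadrants were lower at the edge. The rIL7 ratio of Egr1 near 1 averaged unlike depths. Its level there was 103 CPM at step 1 (88.8 to 119) and 145 CPM at step 2 (129 to 162). Deeper in that section it was 167 CPM at step 4 and 104 CPM at steps 13 to 21. For Atf3 the ratios were 1.18 (0.778 to 1.73) for the control and 0.937 (0.662 to 1.30) for the rIL7 section, so no edge difference was detectable with 34 and 43 UMIs there. An edge of 1 grid step gave rIL7 log2 edge ratios of -0.30 for Egr1 and -0.62 for Atf3, the latter from 14 UMIs at that step.

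**Figure D3:**
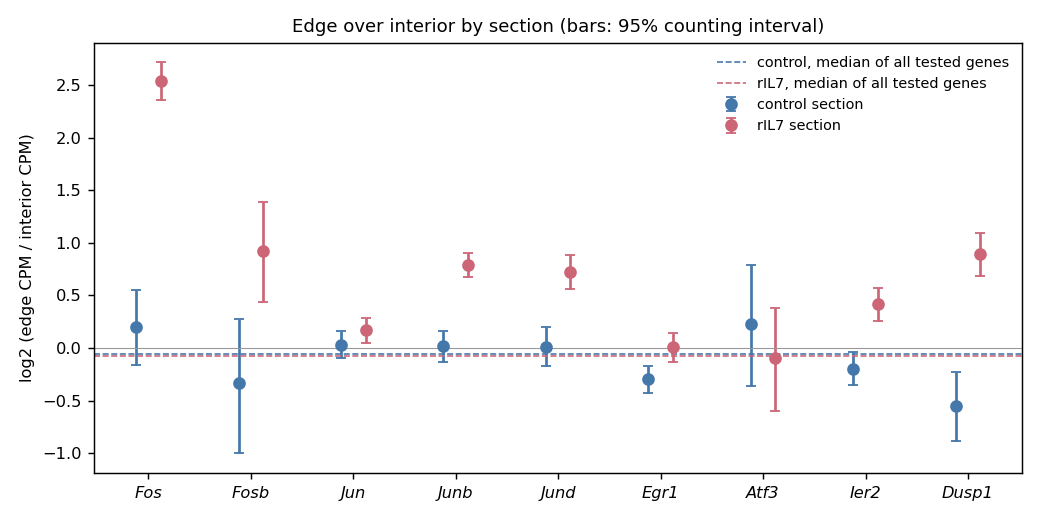
Log2 edge over interior ratio of each gene in the control and the rIL7 section, with 95% counting intervals. A dashed line for each section marks the median of all genes averaging 20 CPM or more. Before the log2 step, Fos in the rIL7 section stands at 5.80, Fosb, Junb, Jund and Dusp1 there between 1.65 and 1.90, and the control ratios between 0.683 and 1.18.

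Counted together, 8 of 9 members were higher at the rIL7 edge and 5 of 9 at the control edge. Of the 7613 genes averaging 20 CPM or more, 2949 were higher at the rIL7 edge and 2765 at the control edge. The median log2 edge ratio of the members was 0.72 in the rIL7 and 0.01 in the control section, against -0.07 and -0.06 over all 7613 genes. A ratio of at least 1.5 at the rIL7 edge was reached by 4 of 7 members (Fos, Junb, Jund and Dusp1) and by 4.41% of genes, and a ratio that far below 1 by 0 of 7 members and 4.78% of genes. In the control section 0 of 7 members passed in either direction, against 0.565% of genes higher and 0.788% lower at the edge.

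Compared zone by zone, the sections differed mainly at the edge in Fos, Dusp1, Fosb, Junb and Jund. Edge spots alone gave rIL7 over control ratios of 7.01 for Fos (5.57 to 8.92), 3.26 for Dusp1 (2.56 to 4.18), 2.28 for Fosb (1.40 to 3.80), 1.95 for Junb (1.74 to 2.19) and 1.56 for Jund (1.34 to 1.82). Interior spots alone gave 1.39 for Fos (1.20 to 1.61), 1.20 for Dusp1 (1.08 to 1.34), 1.14 for Junb (1.07 to 1.21), 0.951 for Fosb (0.749 to 1.21) and 0.953 for Jund (0.881 to 1.03). Atf3 kept a ratio of 1.81 (1.45 to 2.27) in the interior, and the lower levels of Egr1 (0.788, 0.747 to 0.830) and Ier2 (0.749, 0.702 to 0.800) were interior values too. Ier2 at the edge had a ratio of 1.14, with an interval of 0.997 to 1.31 that includes 1. For the sum of the members the ratio was 1.59 at the edge (1.51 to 1.67) and 0.974 in the interior (0.950 to 0.998).

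Markers of several cell types were also higher at the rIL7 edge. Macrophage genes summed to 6732 CPM at that edge and 3396 CPM inside (ratio 1.98), with 6 of 8 past 1.5-fold, and to 3765 and 3378 CPM in the control (1.11). The 7 T cell genes, none of which reached a mean of 20 CPM, summed to 290 and 79.9 CPM (3.63), against 36.2 and 32.2 CPM in the control (1.13). Monocyte (2.15), endothelial (2.40), fibroblast (1.74) and adipocyte (1.89) lists were raised there too, where the control had 1.51, 1.27, 0.972 and 0.746. Of the genes averaging 20 CPM or more, 2 of 3 monocyte, 1 of 1 endothelial and 1 of 1 adipocyte genes were past 1.5-fold at the rIL7 edge. At the control edge 2 of 3 monocyte genes were past it as well, with 0 of 1 endothelial and 0 of 1 adipocyte genes. Of all genes at that level, 4.41% were past it at the rIL7 edge and 0.565% at the control edge. The fibroblast list was split, with 2 of 5 such genes at least 1.5-fold higher at the rIL7 edge and 1 of 5 at least that much lower. The CT26 markers were lower, at 757 CPM at the rIL7 edge and 1096 CPM inside (0.691), against 0.916 in the control. Of the keratinocyte genes, which would mark overlying skin, Krt5 and Krt1 were at 0 UMIs in the rIL7 section and the list was lower at its edge (29.6 against 39.1 CPM, 0.756). The control edge, in contrast, had 118 CPM of keratinocyte genes against 40.7 CPM inside (2.90, 2.59 to 3.25). Krt10, the only gene of this list averaging 20 CPM or more, was not raised there (log2 edge ratio -0.12), so that rise came from the others. In the rIL7 section Krt10 gave 37.5 of the list's 37.6 CPM. The edges compared above thus differed in the other keratinocyte genes, whose part in the rIL7 over control edge ratios was not tested. No member of the macrophage, T cell, endothelial or fibroblast lists was at 0. The part of these cell types in the edge values of Fos, Junb, Jund and Dusp1 was not tested, and more such cells cannot be told apart here from more RNA of these genes per cell. Median UMIs per spot were 11166 at the rIL7 edge and 13162 in its interior, and 10901 and 9482 in the control.

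Heat shock genes were examined beside the members, since heat and handling of tissue induce both. The 10 chaperone genes summed to 3804 CPM in the control against 3512 CPM with rIL7, and their rIL7 edge ratio was 1.02. Within the list, Hspa1a and Hspa1b, the inducible HSP70 genes, were singled out after their values were seen. Hspa1a had 4.10 CPM in the control against 24.2 CPM with rIL7. Its edge and interior levels were 1.12 and 4.84 CPM in control tissue (0.231, 0.0732 to 0.560) and 51.2 and 19.2 CPM in rIL7 tissue (2.67, 2.24 to 3.17). Hspa1b had 12.8 and 22.2 CPM in the sections, with 8.95 and 13.7 CPM at the edge and inside of the control (0.655, 0.457 to 0.918) and 42.6 and 18.4 CPM in rIL7 tissue (2.31, 1.92 to 2.78). Both thus had ratios on opposite sides of 1 in the sections, as did Dusp1. In the patch of control tissue with the most Dusp1, described below, Hspa1b was at 152 CPM (37 UMIs) against 11.3 CPM in the rest. Hspa1a and Hspa1b are near-identical copies, so the split of reads between them is uncertain, and their part in the edge values of the members was not tested.

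**Figure D4:**
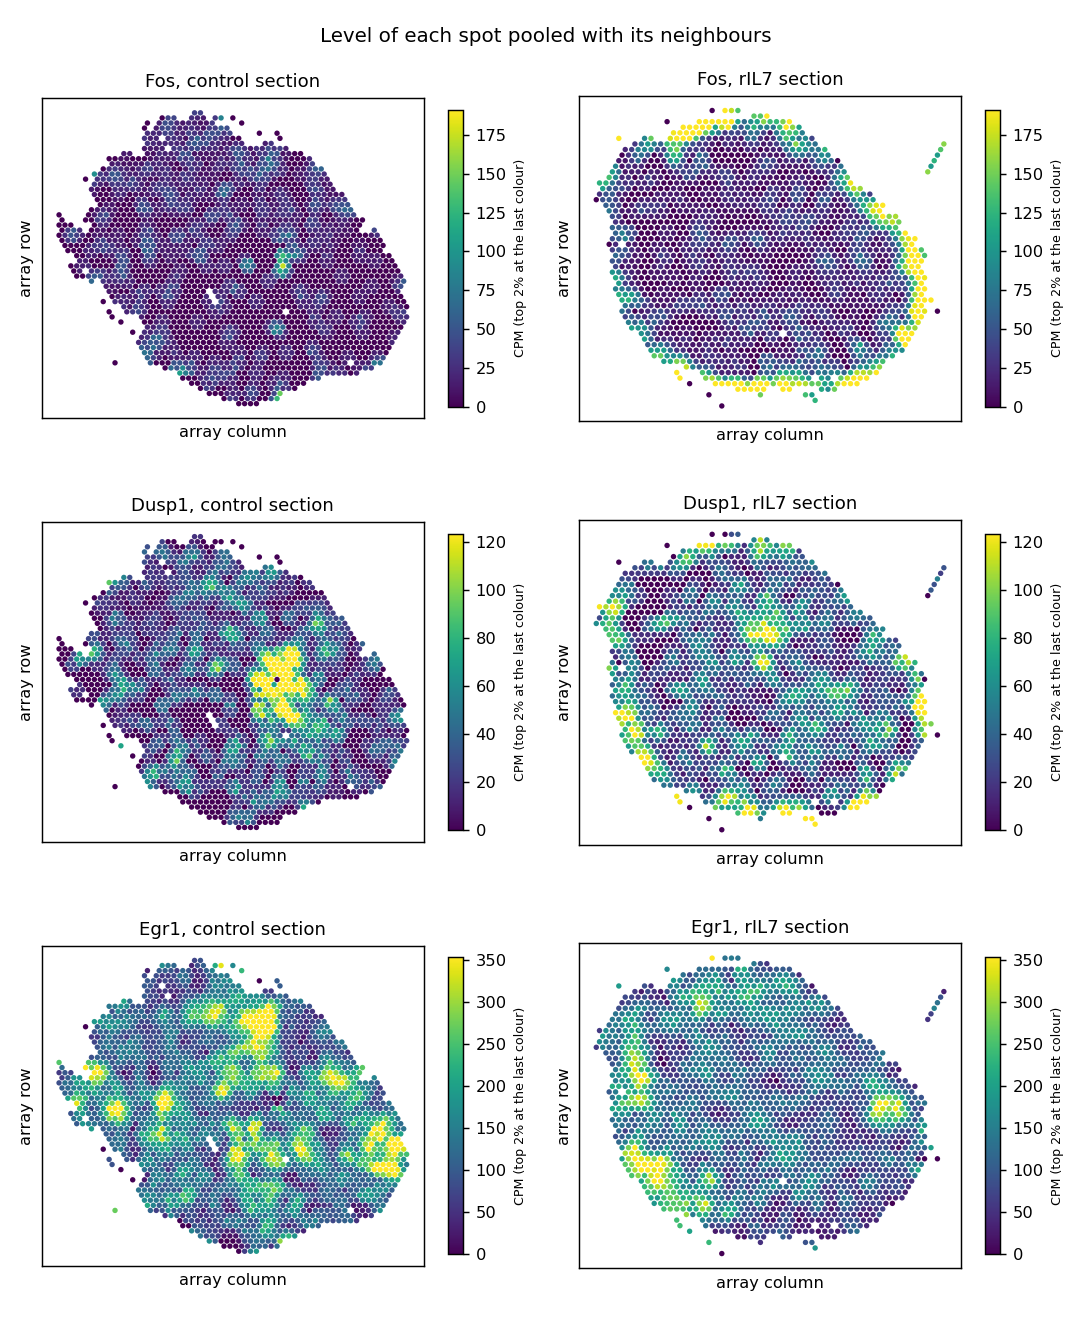
Position maps of Fos, Egr1 and Dusp1 in both sections, each spot coloured by its level in CPM after pooling with its neighbours, on 1 scale per gene for both sections. Fos forms a rim around the rIL7 section, brightest at the top, right and bottom, that the control lacks, Egr1 lies in patches inside both sections, and Dusp1 has a patch deep in the control section.

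Besides the edge, some members lay in patches. Tissue was divided into tiles of 6 array rows by 12 array columns holding at least 18 kept spots, which gave 63 control and 54 rIL7 tiles, a division added after spot-level counts had been seen to be sparse. Jun varied between tiles hardly more than counting predicts, with a coefficient of variation of 0.156 where counting alone gives 0.152 in the control, and 0.146 against 0.126 in the rIL7 section. Egr1 was uneven in both, with 0.364 against 0.144 and 0.406 against 0.139. Its tiles ran from 47.3 to 366 CPM around a median of 141 CPM in the control and from 45.6 to 300 CPM around 121 CPM in the rIL7 section. Dusp1 varied by 0.716 against a counting value of 0.336 in the control and by 0.422 against 0.249 in the rIL7 section, and Fos by 0.489 against 0.441 and by 0.988 against 0.263.

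The tile with the most Dusp1 in the control section lay 10 to 17 steps from the outline and is described because of that value, with no test. It held 127 CPM of Dusp1 (31 UMIs), against 27.1 CPM in the rest of the section. Junb was also at its section maximum there, with 234 CPM against 102 CPM, and Atf3 was at 45.2 CPM (11 UMIs) against 6.30 CPM. Egr1 (177 and 153 CPM) and Ier2 (103 and 104 CPM) were near their levels elsewhere. In the same tile the neutrophil markers summed to 1952 CPM against 122 CPM in the rest, and the hypoxia genes to 6548 against 3127 CPM, while macrophage markers were lower (1965 against 3473 CPM). The genes with the largest ratios were Hcar2, a receptor for hydroxy-carboxylic acids on neutrophils and macrophages, at 452 against 8.54 CPM, and Cxcl2, a chemokine that attracts neutrophils, at 152 against 3.96 CPM.

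A similar combination was seen in 1 tile of the rIL7 section, 1 to 4 steps from the outline, where 4 members (Junb, Egr1, Atf3 and Dusp1) all had their section maximum. Dusp1 was at 94.9 CPM there against 40.3 CPM in the rest, Atf3 at 53.7 against 11.1 CPM, Junb at 275 against 130 CPM and Egr1 at 300 against 123 CPM. Neutrophil markers summed to 952 against 243 CPM and hypoxia genes to 6592 against 3434 CPM, both the highest of the 54 tiles. Hcar2 again led the genes by ratio (149 against 14.9 CPM), and Ptgs2, the inducible cyclooxygenase and an AP-1 target, was at 383 against 70.1 CPM. Fos was not part of this tile to the same degree, with 60.1 against 40.3 CPM.

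The Fos maximum of the rIL7 section was a different tile, with 207 CPM (36 UMIs) against 39.4 CPM. That tile reached no deeper than step 3 and included tissue outside the largest piece. It held the highest fibroblast sum of the 54 tiles (7330 against 2111 CPM) and large amounts of plasma cell transcripts, with Igkc, the immunoglobulin kappa constant region, at 5969 against 85.6 CPM. Jund had its maximum in the same tile, at 132 against 68.6 CPM. In the control section, Fos, Egr1 and Ier2 shared their highest tile, 4 to 9 steps from the outline, with 34.5, 366 and 170 CPM against 16.6, 149 and 103 CPM. Nr4a1, an orphan nuclear receptor of the same early wave, was at 260 against 104 CPM in that tile, while its neutrophil, macrophage and hypoxia sums were within 1.5-fold of the rest.

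Correlations between members were close to 0 in single spots, where most hold 0 or 1 UMI of a gene. After thinning every spot to 5900 UMIs, the median Spearman rho over the 36 pairs was 0.0014 across 2002 control spots and 0.0293 across 1869 rIL7 spots, with highest values of 0.0656 (Egr1 with Ier2) and 0.0918 (Atf3 with Dusp1). Over all pairs of genes the median was 0.0002 in both. These values are too weak to be read as a finding. Egr1 followed the mean of its neighbouring spots with a rho of 0.244 in control and 0.160 in rIL7 tissue, and Fos with 0.0389 and 0.249. Spots share a library and neighbours share cells and depth, so no p-value is attached.

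Summed over tiles of all kept spots, 1 pair, Junb with Dusp1, stood out in both sections. The median rho was 0.105 over the control tiles and 0.204 over the rIL7 tiles, and 4 and 6 of the 36 pairs exceeded the 97.5th percentile of all gene pairs (0.341 and 0.372). In the control the highest pair was Egr1 with Ier2 (0.64), followed by Ier2 with Dusp1 (0.48), Egr1 with Dusp1 (0.43) and Junb with Dusp1 (0.39). In the rIL7 section the leading pairs were Junb with Ier2 (0.47), with Fos (0.46) and with Dusp1 (0.44), and Egr1 with Ier2 was at 0.20. The order depended on where tile borders fell: with shifted tiles Junb with Ier2 was at 0.24 and Egr1 with Ier2 at 0.38 in the rIL7 section, the latter above the 97.5th percentile of 0.364, while Fos with Junb (0.47) and Junb with Dusp1 (0.41) stayed near their values. The Fos and Junb value rested on the edge, being 0.06 in tiles of interior spots, whereas Junb with Atf3 was 0.33 over all rIL7 tiles and 0.50 over the 45 interior ones. Junb with Dusp1 fell to 0.24 over the interior rIL7 tiles, below their 97.5th percentile of 0.358. Over the interior control tiles that pair was at 0.46. Tiles of 1 section share a library and differ in base composition and depth, and the difference between sections was not tested.

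**Figure D5:**
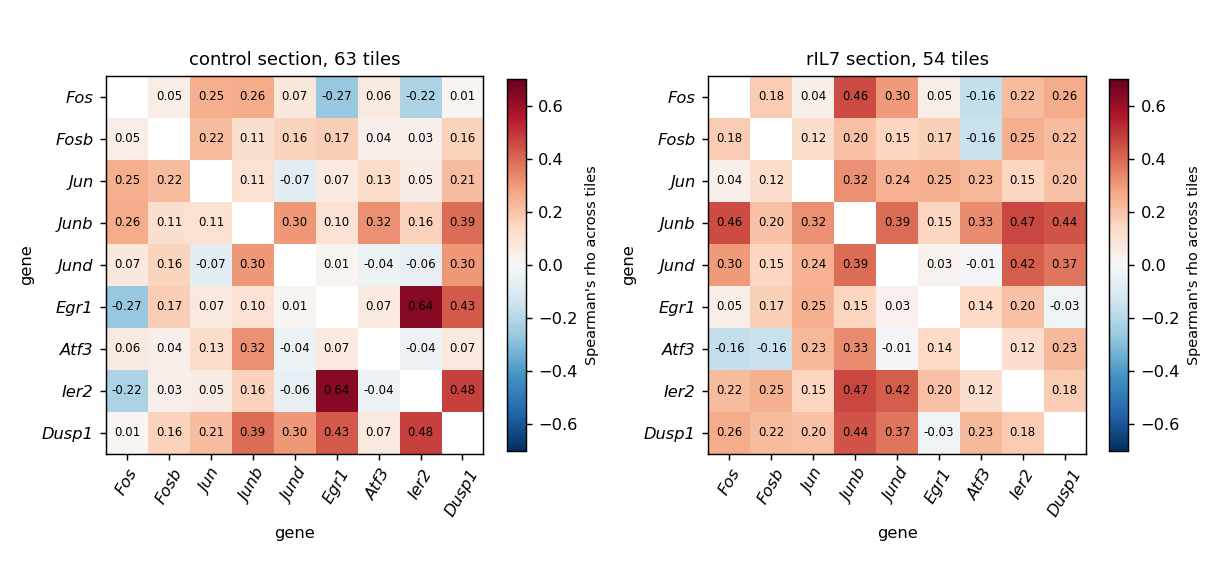
Spearman rho between each pair of the 9 genes across tiles of the control section (63 tiles) and the rIL7 section (54 tiles). Egr1 with Ier2 is the highest pair in the control at 0.64, and Junb with Ier2 and with Fos are the highest in the rIL7 section at 0.47 and 0.46.

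Tiles also show which cell markers lay where the members were high. Across rIL7 tiles Fos followed the T cell (rho 0.76), monocyte (0.66), macrophage (0.63) and endothelial (0.61) sums and ran against the CT26 markers (-0.62). With edge spots left out, these values were 0.54, 0.45, 0.33, 0.27 and -0.30. Across edge spots of the rIL7 section alone, thinned, Fos had a rho of 0.338 with the macrophage sum, 0.273 with the T cell sum and -0.0534 with the fibroblast sum over 280 spots. Atf3 followed the neutrophil sum (0.63, and 0.64 in interior tiles) and the hypoxia genes in the interior (0.55). In the control, Junb went with the neutrophil sum (0.56) and against the proliferation genes (-0.55).

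Other genes of the pathway were examined as lists. Of 10 other AP-1 subunits, 7 were higher and 3 lower in the rIL7 section, and of the 7 above 20 CPM none passed the 1.5-fold rule with quadrants apart in either direction. Batf2, an interferon-induced subunit, was at 34.0 and 58.8 CPM, Maff at 51.9 and 63.8 CPM and Fosl2 at 133 and 162 CPM. Unlike Fos, the subunits Fosl2 and Maff were lower at the rIL7 edge than inside, with ratios of 0.730 (0.663 to 0.803) and 0.584 (0.492 to 0.689), while Batf2 was higher (1.79, 1.59 to 2.02).

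Among 24 other immediate early genes, 17 were higher and 7 lower, with 1 of 18 past the rule. That gene was Socs3, an inhibitor of cytokine signalling, at 77.0 and 135 CPM. Ccn1, a matrix protein, was at 87.1 and 148 CPM with overlapping quadrants, and Zfp36, which promotes decay of cytokine mRNAs, at 67.0 and 98.9 CPM. Zfp36 had an edge ratio of 2.27 (2.08 to 2.47) in the rIL7 section and 0.963 in the control, as Junb had 1.73 and 1.01, whereas Socs3 had 0.883 and 0.861. Across tiles the summed members followed the sum of this list with a rho of 0.71 in control and 0.51 in rIL7 tissue.

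Feedback inhibitors and upstream genes had no member past the rule. Of 12 MAP kinase phosphatases and Sprouty genes, 9 were higher and 3 lower (median log2 ratio 0.18, 0 of 6 past the rule), with Dusp5 at 25.4 and 34.9 CPM, Spred1 at 78.6 and 91.1 CPM and Spred2 at 31.8 and 36.5 CPM. Of 16 upstream kinases and factors, 11 were higher and 5 lower, with a median log2 ratio of 0.07 and 0 of 13 past the rule, and Rps6ka1 and Mapk14 had ratios of 1.14 and 0.883.

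Genes known as AP-1 targets were higher in the rIL7 section in 14 of 14 cases, with a median log2 ratio of 0.38, beside 3681 of all 7613 genes. The interval of Vegfa (1.05, 0.984 to 1.11) includes 1. The 1.5-fold rule was passed by 4 of 13, beside 1.68% of all genes. These were the matrix metalloproteinases Mmp9 (47.3 and 134 CPM), Mmp13 (61.8 and 120 CPM) and Mmp3 (222 and 407 CPM) and the urokinase gene Plau (36.1 and 56.0 CPM). Their edge over interior ratios in the rIL7 section were mixed, with 0 of 13 targets at least 1.5-fold higher at the edge and 3 of 13 at least that much lower. Mmp3 had 235 CPM at the edge against 438 CPM inside (0.538, 0.502 to 0.575), Mmp13 had 78.0 against 128 CPM (0.611, 0.541 to 0.688) and Plau had 47.9 against 57.5 CPM (0.833, 0.711 to 0.972). Mmp9 was higher at the edge, with 152 against 130 CPM (1.17, 1.07 to 1.28), as were Ptgs2 (1.38, 1.23 to 1.55), Cd44 (1.26, 1.18 to 1.34) and Plaur (170 against 142 CPM, 1.20). In edge spots the rho of Fos with the summed targets was -0.214.

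The genes whose pattern across spots was most like the summed members, ranked by the lower of the section rho values over 7606 genes, were Mt1, Mt2, Ier3, Bnip3, Zfp36, Ero1l, Klf5, Ptgs2, Ndrg1 and Ifitm1. The values were low, from 0.0954 and 0.136 for Mt1 to 0.0517 and 0.0776 for Ifitm1 in the control and rIL7 sections. Mt1 and Mt2, the metallothioneins that bind zinc and copper, were at 890 and 336 CPM in the control and 1864 and 865 CPM in the rIL7 section.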

How the data were processed

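Visium libraries of 1 control and 1 rIL7 tumor section (2 libraries) were used. The authors counted UMIs per gene and spot with Space Ranger 1.1.0 against mm10, and the deposited matrices hold these raw counts. Other deposited items, namely barcodes, gene identifiers and spot positions, were used as given by the authors, and image scale factors were not used. Spots over tissue with under 10% mitochondrial UMIs and over 200 genes were kept, as in the study's methods. UMIs were summed and divided by the section or zone total (CPM). Depth was 22951678 and 25729233 UMIs.

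With 1 section per group no test was run. Intervals (95%) are exact Poisson for a level and exact binomial (Clopper-Pearson) for a ratio. Quadrants were split at the median array row and column. Calls used genes averaging 20 CPM or more and a fold of 1.5. For rho, spots were thinned to 5900 UMIs, leaving out 217 control and 81 rIL7 spots. Tiles held 6 rows by 12 columns and at least 18 spots. Beside the 9 genes, the text names from each pathway list the 3 genes above 20 CPM with the largest absolute log2 ratio, genes past a rule, and the 10 most alike genes; list counts cover genes with at least 20 UMIs. Genes of single tiles and some list genes at the edge were chosen after their values were seen. The members and lists were chosen with earlier results of these data known. Coordinates are those of RefSeq on GRCm38, matched by symbol for 9 of 9 genes. A further gene that this rule names is not reported here. The list symbol Ca9 had no match in the files. Calculations ran in Python 3.11.15 with numpy 2.4.6 and scipy 1.17.1, and edgeR 4.0.16 in R 4.3.3 gave only the TMM factors of an alternative scaling. The scripts were tested on simulated data. Alternatives were other spot filters, scalings, totals, edge widths, zones, thinning depths and tiles.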

Additional observations from a re-analysis of the deposited data

Results flagged for a closer look

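The edge over interior ratio lay on opposite sides of 1 in the sections for Ier2, Dusp1 and the summed members, with every counting interval clear of 1. Ier2 had a ratio of 0.873 in control and 1.33 in rIL7 tissue. Dusp1 had ratios of 0.683 and 1.85, and the summed members 0.928 and 1.52. The control value of the sum leaned on Egr1, the member with the most UMIs there. Without Egr1 its log2 edge ratio was -0.050, against -0.11 with it, and no interval was computed for the former. With 1 section of each kind, the difference between sections was not tested for Ier2, Dusp1 or the sum.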

How the results depend on the processing

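Zone was the choice that moved values most. Interior spots alone gave a log2 section ratio of -0.039 for the summed members, the reverse of the whole section, and edge spots alone gave 0.67 for that sum, 0.64 for the median member and 0.20 for Ier2, the reverse of its whole-section direction. An edge of 3 grid steps gave log2 edge ratios in the rIL7 section of 0.54 (median member) and 0.49 (sum), and the sum without the member with the most UMIs gave 0.72. The median rho of the members in the control section was 0.0135 with thinning to 3000 UMIs and 0.0237 without thinning. Tiles, chosen after seeing the data, gave 0.105, shifted tiles 0.142 and interior tiles 0.137 in the control, and 0.204, 0.128 and 0.107 in the rIL7 section. The cause was not tested. Of the values that answer a comparison, 56 stayed within their counting interval or quadrant spread, 13 moved and 1 reversed, and for single genes 179 stayed, 18 moved and 1 reversed. Some settings could hardly move a value. Dropping the spot filter returned only 2 control spots and 1 rIL7 spot, and 8 of the 56 came from it. The section ratio of the median member was held against the wide interval of Fosb (log2 -0.11 to 0.49). No paired analysis was possible because each group holds 1 section, and for the same reason no replicate could be left out. Fosb and Atf3, with 154 to 299 UMIs per section, are limited by depth.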
